A study of Mus musculus with 6 samples.

Results

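The genes described here encode the inducible nitric oxide (NO) synthase and the proteins that supply, recycle or compete for its substrate and cofactor. They are 10 genes chosen by name, Nos2, Slc7a2, Ass1, Asl, Arg1, Arg2, Gch1, Pts, Spr and Qdpr, and all 10 were found among the 54532 genes of the series. RNA-seq was performed on bone-marrow-derived macrophages (BMDMs), which are grown in culture from marrow of wild-type C57BL/6 mice in medium conditioned by L929 cells. The 6 libraries form 3 groups of 2, namely untreated BMDMs, BMDMs kept for 2 h with LPS at 100 ng/ml (LPS), and BMDMs that had metformin at 5 mM during the 6 h ahead of that LPS stimulation (Met + LPS). LPS is a bacterial cell wall component sensed by Toll-like receptor 4, and metformin is an antidiabetic drug that inhibits complex I of the respiratory chain. No group received metformin alone, and all cells came from culture rather than from tissue. According to the study's methods the BMDMs were seeded in duplicate. The sources used here do not give the age of the mice or say whether replicate libraries came from separate animals. The p-values therefore measure only the spread between these libraries.

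Macrophages that sense bacteria make NO, a short-lived antimicrobial gas, from the amino acid arginine, and NO synthase releases citrulline as its other product. Arginine enters through cationic amino acid carriers, can be rebuilt from citrulline by argininosuccinate synthase and lyase, and is taken from NO synthesis by the arginases, which split it into ornithine and urea. NO synthase also needs the cofactor tetrahydrobiopterin, which is made from GTP in 3 enzymatic steps and regenerated by a reductase.

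Values are TPM, a measure of transcript abundance that is corrected for gene length and sums to an equal total in every library. Reads recovered from them numbered 25457016 to 30762754 per library. The test, limma on log2(TPM + 1), took in the 12755 genes that reached 1 TPM in 2 or more libraries, 9 of the 10 among them, and every log2 fold change and standard error (SE) below is on that scale, which understates the change of low genes. A gene was counted as past the fold cut-off when its log2 fold change in either direction reached 2 against untreated cells, or 0.7 in Met + LPS vs. LPS, and its adjusted p-value was under 0.01. It was counted as changed at any fold on the adjusted p-value alone. The macrophage markers were detected in all libraries (7 of 7 genes), with summed levels of 43710 to 45600 TPM in untreated, 34530 to 35260 TPM in LPS and 28760 to 28880 TPM in Met + LPS libraries. Most of each sum was Lyz2, at means of 34912, 26835 and 21292 TPM in the same order of groups. By limma, 5 of these 7 markers were lower at any fold in Met + LPS than in LPS libraries, where 18% of all tested genes were. The other markers, Cd68 and Csf1r, were not called. Markers of other blood and stromal cells (15 genes) summed to 10.6 to 15.9 TPM, with 10 of them under 1 TPM in all libraries and the T cell marker Cd3g and the globin gene Hbb-bs at 0. The part of these shifts in the results below was not tested, and in bulk RNA fewer cells of a type and less RNA per cell cannot be told apart.

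The order of the 10 genes changed between groups. In untreated cells the cofactor-recycling reductase gene Qdpr was the highest, at 101 ± 1.28 TPM (SD, n = 2), followed by Asl at 46.4 ± 1.34 TPM and Spr at 31.9 ± 1.15 TPM, while Nos2 and Arg1 were at the bottom and overlapped each other. Gch1 and Pts also overlapped, at 10.9 ± 0.0314 and 10.7 ± 0.365 TPM. In LPS libraries the order was led by Nos2 at 121 ± 0.730 TPM and Slc7a2 at 104 ± 2.01 TPM, ahead of Qdpr at 72.8 ± 3.87 TPM. In Met + LPS libraries Slc7a2 came first at 74.8 ± 1.36 TPM, followed by Qdpr at 63.4 ± 0.361 TPM and Nos2 at 45.3 ± 1.17 TPM. Arg1 was last in both stimulated groups, below Pts and Arg2, and no neighbours in these latter 2 orders overlapped. Places in an order depend on the exon lengths by which reads are divided, but changes of a gene between groups do not.

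**Figure D1:**
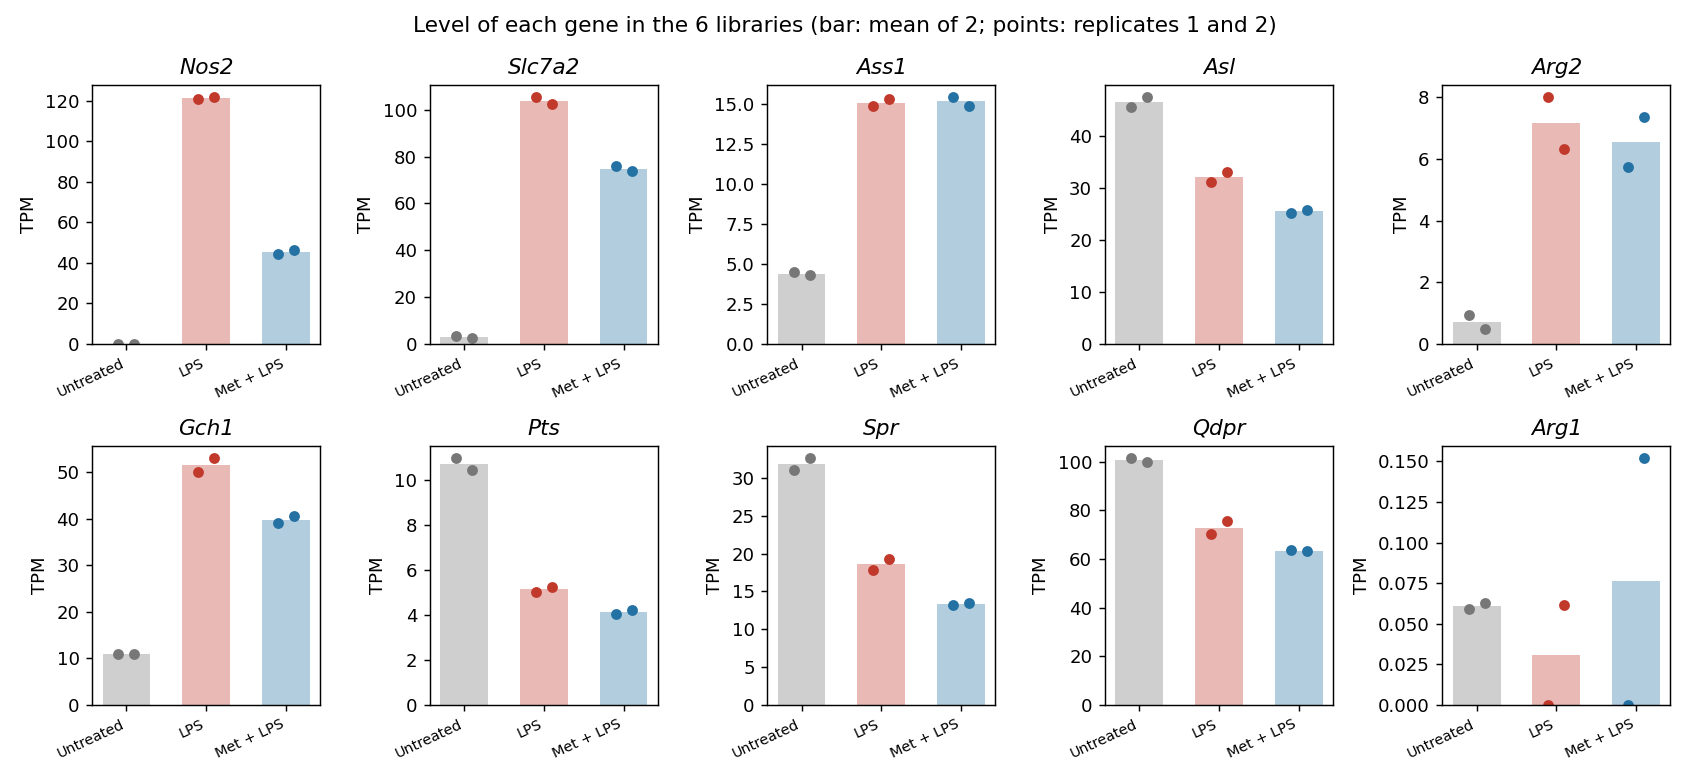
Level of each of the 10 genes in each of the 6 libraries, in TPM, with a panel per gene, bars at the group mean of untreated, LPS and Met + LPS cells and points for the replicates (n = 2). Nos2 goes from under 0.1 TPM in both untreated libraries to about 121 TPM with LPS and 45.3 TPM with Met + LPS, whereas Arg1 stays at or below 0.152 TPM in all 6.

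Nos2 (ENSMUSG00000020826, chr11:78920787-78960254 of GRCm38, + strand), the inducible NO synthase, was nearly silent before stimulation and was the most strongly induced of the 10 genes. It was at 0.0596 and 0.0949 TPM in the untreated libraries, which rest on 2 and 3 reads, at 120.6 and 121.6 TPM in the LPS libraries and at 44.5 and 46.1 TPM in the Met + LPS libraries. The 3 groups did not overlap, with Met + LPS between the other groups. Against untreated cells the log2 fold change of LPS was 6.82 (SE 0.05, limma adjusted p = 1.45e-09), which placed Nos2 at 30 from the top of the 12755 tested genes. Nos2 passed the filter on low values only through the stimulated libraries, so a difference from untreated cells follows from that. Because the untreated level rests on 5 reads in all, the fold itself is loosely bounded. The ratio of reads, scaled by library as for TPM, was 1580, with a 95% counting interval of 676 to 4860. By voom on the recovered reads the log2 fold change was 10.40 (SE 0.46). Met + LPS was lower than LPS by a log2 fold change of -1.40 (SE 0.05, limma adjusted p = 1.07e-05), at 65 from the bottom of all tested genes. In reads scaled as for TPM that is a ratio of 0.375 (95% counting interval 0.36 to 0.39). Of the difference between LPS and untreated cells, 37.4% was left in Met + LPS on the TPM scale. On the log2(TPM + 1) scale 79.5% was left, a share that depends on the added 1, since the untreated level is far below 1 TPM. All 31-base words of the Nos2 transcripts were found in no other gene, so its reads are not shared. Leaving out any library in turn kept the metformin difference between -1.42 and -1.37.

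Slc7a2 (ENSMUSG00000031596, chr8:40862396-40922308, + strand), the inducible cationic amino acid carrier CAT2 that brings arginine into activated macrophages, rose with LPS next to Nos2. Its level was 3.41 and 2.70 TPM in untreated, 105 and 102 TPM in LPS and 75.8 and 73.8 TPM in Met + LPS libraries. Again no groups overlapped. The log2 fold change of LPS vs. untreated was 4.70 (SE 0.08, limma adjusted p = 3.61e-08), the change at 83 from the top of all tested genes. With metformin it fell by 0.47 on the log2 scale (SE 0.08, limma adjusted p = 0.00387), short of the fold cut-off, and 71.1% of the LPS difference was left on the TPM scale and 90.0% on the log2 scale. That metformin call is fragile: the adjusted p-value was 0.0104 with a pseudocount of 0.1, 0.0204 without the filter on low values and 0.0139 without the variance trend, and it was 0.0279 without LPS replicate 1, 0.0223 without LPS replicate 2, 0.0233 without Met_LPS replicate 1 and 0.0293 without Met_LPS replicate 2. By voom on the recovered reads it was 1.27e-08.

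The constitutive carrier CAT1, encoded by Slc7a1, moved the other way with metformin. It was at 18.9 and 19.1 TPM in untreated, 27.5 and 26.7 TPM in LPS and 87.7 and 87.9 TPM in Met + LPS libraries, so that each stimulated group was higher than the one before. The log2 fold change of Met + LPS vs. LPS was 1.66 (SE 0.04, limma adjusted p = 4.43e-06). The ratio of Slc7a2 to Slc7a1 transcripts was 0.181 and 0.142 in untreated and 3.84 in both LPS libraries, but 0.864 and 0.840 in Met + LPS libraries. The carrier with more transcripts was thus Slc7a1 in untreated cells, Slc7a2 in LPS and Slc7a1 in Met + LPS. Summed over the pair, the level was 22.3 and 21.8 TPM in untreated, 133 and 129 TPM in LPS and 164 and 162 TPM in Met + LPS libraries. The sum was highest with metformin although Slc7a2 itself was lower.

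Ass1 and Asl, the argininosuccinate synthase and lyase that act in turn to rebuild arginine from citrulline, moved in opposite directions with LPS. Ass1 (ENSMUSG00000076441, chr2:31470207-31520672, + strand) was at 4.47 and 4.28 TPM in untreated, 14.9 and 15.3 TPM in LPS and 15.4 and 14.9 TPM in Met + LPS libraries. Both stimulated groups were above untreated cells and overlapped each other. It rose with LPS by a log2 fold change of 1.58 (SE 0.06, limma adjusted p = 1.07e-06), under the cut-off. The difference between Met + LPS and LPS was 0.01 (95% interval -0.13 to 0.15, limma adjusted p = 0.936), so that 101% of the LPS difference was left. Only 56.9% of the 31-base words of Ass1 are its own, the others being shared mainly with the predicted gene Gm5424, which rests on 1 to 4 reads per library. The level of Ass1 is therefore uncertain to the extent that the authors' counting split or dropped shared reads.

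Asl (ENSMUSG00000025533, chr5:130011258-130029247, - strand) was at 45.5 and 47.4 TPM in untreated, 31.2 and 32.9 TPM in LPS and 25.1 and 25.8 TPM in Met + LPS libraries, without overlap. The log2 fold change of LPS vs. untreated was -0.52 (SE 0.05, limma adjusted p = 6.05e-05), close to the median of all tested genes, -0.48. After median-ratio scaling, which sets the typical gene level between libraries, it was -0.01 (limma adjusted p = 0.896). With metformin Asl fell by 0.32 (SE 0.05, limma adjusted p = 0.00197) where the median of all tested genes was -0.03. This call was lost without LPS replicate 2 (adjusted p = 0.0139), without Met_LPS replicate 1 (0.0141) and without Met_LPS replicate 2 (0.0102). The excess of Asl over Ass1 transcripts narrowed from 10.2 and 11.1 in untreated to 2.10 and 2.16 in LPS and 1.63 and 1.73 in Met + LPS libraries.

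The arginases, which draw arginine away from NO synthase, were low in all 3 groups, with Arg1 near the limit of detection and Arg2 under 10 TPM. Arg1 (ENSMUSG00000019987, chr10:24915221-24927484, - strand), the cytosolic arginase known as a marker of alternatively activated macrophages, was not tested, since it was at 0.0590 and 0.0627 TPM in untreated, 0 and 0.0615 TPM in LPS and 0 and 0.152 TPM in Met + LPS libraries. These values are 1, 1, 0, 1, 0 and 3 reads, all at or under the level of 3 reads (0.152 to 0.188 TPM by library) that a count of 0 allows, which covers counting error only. No difference in Arg1 was detectable at this depth, and no fold is given.

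Arg2 (ENSMUSG00000021125, chr12:79130777-79156301, + strand), the mitochondrial arginase, was at 0.921 and 0.489 TPM in untreated, 8.00 and 6.33 TPM in LPS and 5.74 and 7.36 TPM in Met + LPS libraries. Both stimulated groups lay above untreated cells and overlapped each other. Arg2 passed the filter on low values only through them, so a difference from untreated cells follows from that. The log2 fold change of LPS vs. untreated was 2.26 (SE 0.18, limma adjusted p = 2.86e-05). The ratio of reads, scaled as for TPM, was 10.1 (95% counting interval 5.94 to 18.5) on 15 untreated reads. Between Met + LPS and LPS the log2 fold change was -0.11 (95% interval -0.54 to 0.31, limma adjusted p = 0.628), an interval wide enough to hold the change seen for Slc7a2 or Gch1. Of the exon bases of Arg2, 28.1% overlap genes on the opposite strand, chiefly Vti1b at 110 to 137 TPM, and without strand in the counting such reads cannot be told apart. Vti1b was at 118 and 110 TPM in LPS and 137 and 135 TPM in untreated libraries. The part of overlapping reads in the Arg2 values was not tested. Nos2 transcripts were 15.1 and 19.2 times those of Arg2 in LPS libraries and 7.75 and 6.27 times in Met + LPS libraries, against 0.0647 and 0.194 times in untreated cells.

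Among the genes of the cofactor, only that of the first enzyme rose with LPS. Gch1 (ENSMUSG00000037580, chr14:47153895-47189413, - strand), GTP cyclohydrolase, which commits GTP to the pathway and is regarded as its rate-limiting step, was at 10.9 TPM in both untreated, 49.97 and 53.03 TPM in LPS and 39.0 and 40.5 TPM in Met + LPS libraries. No groups overlapped. The log2 fold change of LPS vs. untreated was 2.14 (SE 0.05, limma adjusted p = 1.23e-07). In Met + LPS it was lower than in LPS by a log2 fold change of -0.37 (SE 0.05, limma adjusted p = 0.00124), and 71.05% of the LPS difference was left on the TPM scale and 82.9% on the log2 scale. Without LPS replicate 2 or Met_LPS replicate 1 the adjusted p-value of that decrease was 0.01001 and 0.01023, at the threshold.

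Pts, Spr and Qdpr, the remaining enzymes of the cofactor, all fell with LPS in TPM. Pts (ENSMUSG00000032067, chr9:50521617-50528724, - strand), 6-pyruvoyltetrahydropterin synthase of the second step, was at 10.97 and 10.5 TPM in untreated, 5.02 and 5.26 TPM in LPS and 4.03 and 4.22 TPM in Met + LPS libraries. Spr (ENSMUSG00000033735, chr6:85130176-85137766, - strand), sepiapterin reductase of the last step, was at 31.1 and 32.7, 17.9 and 19.2, and 13.2 and 13.5 TPM in the same order of groups. Qdpr (ENSMUSG00000015806, chr5:45434021-45450236, - strand), the reductase that regenerates the spent cofactor, was at 102 and 99.8, 70.1 and 75.6, and 63.7 and 63.2 TPM. In each of these genes the groups were ordered untreated, LPS, Met + LPS from high to low, without overlap. Against untreated cells the log2 fold changes of LPS were -0.93 for Pts, -0.75 for Spr and -0.46 for Qdpr (SE 0.07, 0.06 and 0.04, limma adjusted p = 2.57e-05, 2.42e-05 and 7.80e-05). After median-ratio scaling Pts and Spr remained lower, at -0.47 and -0.24 (limma adjusted p = 0.00120 and 0.00831), but Qdpr turned to 0.06 (adjusted p = 0.302). Between Met + LPS and LPS, Spr fell by 0.45 (SE 0.06, limma adjusted p = 9.70e-04) under every alternative run, whereas Pts (-0.26, adjusted p = 0.0234) and Qdpr (-0.20, adjusted p = 0.0117) did not pass. Qdpr did pass without LPS replicate 1 (adjusted p = 0.00851), with a minimum of 5 TPM (0.00621) and by voom (0.00822).

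The balance of the first and second enzymes shifted accordingly. In TPM, Gch1 was close to Pts in untreated libraries (ratios of 0.995 and 1.04). The ratios were 9.96 and 10.1 in LPS and 9.67 and 9.59 in Met + LPS libraries. The ratio with Met + LPS thus lay close to that with LPS, and both far from that of untreated cells. The size of such a ratio depends on the exon lengths used, 6251 bases for Gch1 and 6101 for Pts, the latter in only 2 merged exons. Its change between groups does not. The ratio of Gch1 to Spr went from 0.352 and 0.333 to 2.79 and 2.75 with LPS and to 2.96 and 3.0 with Met + LPS.

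Promoter entries were found for 5 of the genes, and those of Ass1, which rose with LPS, and Pts, which fell, are not shown. The bases before the start of Gch1, which rose, and of Spr and Qdpr, which did not, are given as examples. They are the 250 bases upstream of the RefSeq start in GRCm38.p6, 5′ to 3′ on the strand of the gene (the - strand for all), at chr14:47189414-47189663 for Gch1, chr6:85137765-85138014 for Spr and chr5:45450230-45450479 for Qdpr. Capitals mark matches to the motifs searched.

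Gch1: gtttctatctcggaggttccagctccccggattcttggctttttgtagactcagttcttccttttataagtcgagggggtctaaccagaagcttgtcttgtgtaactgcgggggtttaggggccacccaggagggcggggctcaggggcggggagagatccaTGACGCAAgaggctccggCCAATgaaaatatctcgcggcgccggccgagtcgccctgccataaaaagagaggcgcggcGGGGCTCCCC
Spr: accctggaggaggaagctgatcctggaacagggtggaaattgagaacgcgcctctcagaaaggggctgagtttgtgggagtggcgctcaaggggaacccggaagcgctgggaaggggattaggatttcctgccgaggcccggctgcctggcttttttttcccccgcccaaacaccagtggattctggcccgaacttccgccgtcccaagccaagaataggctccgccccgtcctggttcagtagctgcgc
Qdpr: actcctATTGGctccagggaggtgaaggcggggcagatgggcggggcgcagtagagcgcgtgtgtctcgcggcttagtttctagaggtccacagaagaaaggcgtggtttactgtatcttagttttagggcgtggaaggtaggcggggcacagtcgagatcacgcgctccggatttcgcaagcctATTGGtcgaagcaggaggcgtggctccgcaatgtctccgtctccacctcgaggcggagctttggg

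The motifs were searched on both strands: the κB consensus, bound by NF-κB; TTCNNNGAA, of STAT factors; the ISRE, of interferon regulatory factors; the E-box CACGTG; TGACGNAA, of the CREB and ATF family; TGATGCAA, of ATF4 with a C/EBP partner; and CCAAT. Gch1 held a κB match at positions -10 to -1 from its start, where the letters of both strands fit the consensus, a TGACGNAA match at -88 to -81 and CCAAT at -70 to -66. Qdpr held CCAAT at -244 to -240 and -65 to -61, in both cases on the opposite strand, and Spr and Pts held none of the motifs. Ass1, which also rose with LPS, held CACGTG at -36 to -31 and none of the other motifs. Among all 32851 promoter entries of this length, the κB consensus occurs in 7.25%, TTCNNNGAA in 7.02%, the ISRE in 2.98%, CACGTG in 6.02%, TGACGNAA in 1.39%, TGATGCAA in 0.791% and CCAAT in 33.8%. A match describes letters only, and its bearing on the levels was not tested. Promoter entries were matched for 5 of the 10 genes (Gch1, Ass1, Spr, Pts and Qdpr), and not for Nos2, Arg1, Arg2, Asl and Slc7a2.

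Read against all genes, the LPS response of the set was one of a few large increases. The set was chosen with earlier results of these data known, so the shares beside its counts are descriptive. In LPS vs. untreated, 4 of the 9 tested genes (Nos2, Slc7a2, Arg2 and Gch1) were past the fold cut-off, all higher, where 6.08% of all tested genes were past it and 3.72% were higher. At any fold 5 were higher and 4 lower, while 76.3% of all tested genes changed at any fold, 16.2% higher and 60.1% lower, so the 4 small decreases lie in the direction of most genes. Nos2 and Arg2 passed the filter on low values only through the stimulated libraries, and a difference in them follows from that. With median-ratio scaling, under which the median of all tested genes was -0.01 in place of -0.48, Ass1 also passed the cut-off (log2 fold change 2.02), and at any fold 5 were higher and 2 lower.

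In Met + LPS vs. LPS, 1 of the 9 genes, Nos2, was lower past the fold cut-off, against 4.09% of all tested genes lower and 8.28% past it in either direction. At any fold 5 were lower (Nos2, Slc7a2, Spr, Gch1 and Asl), against 18% of all tested genes lower and 32.6% changed in either direction. The count of 5 fell to 2 without LPS replicate 2, to 2 without Met_LPS replicate 1 and to 3 without Met_LPS replicate 2. In 7 of the 9 genes both Met + LPS libraries lay below both LPS libraries, as in 40% of all tested genes. Ass1 and Arg2 were the exceptions, with overlapping libraries.

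**Figure D2:**
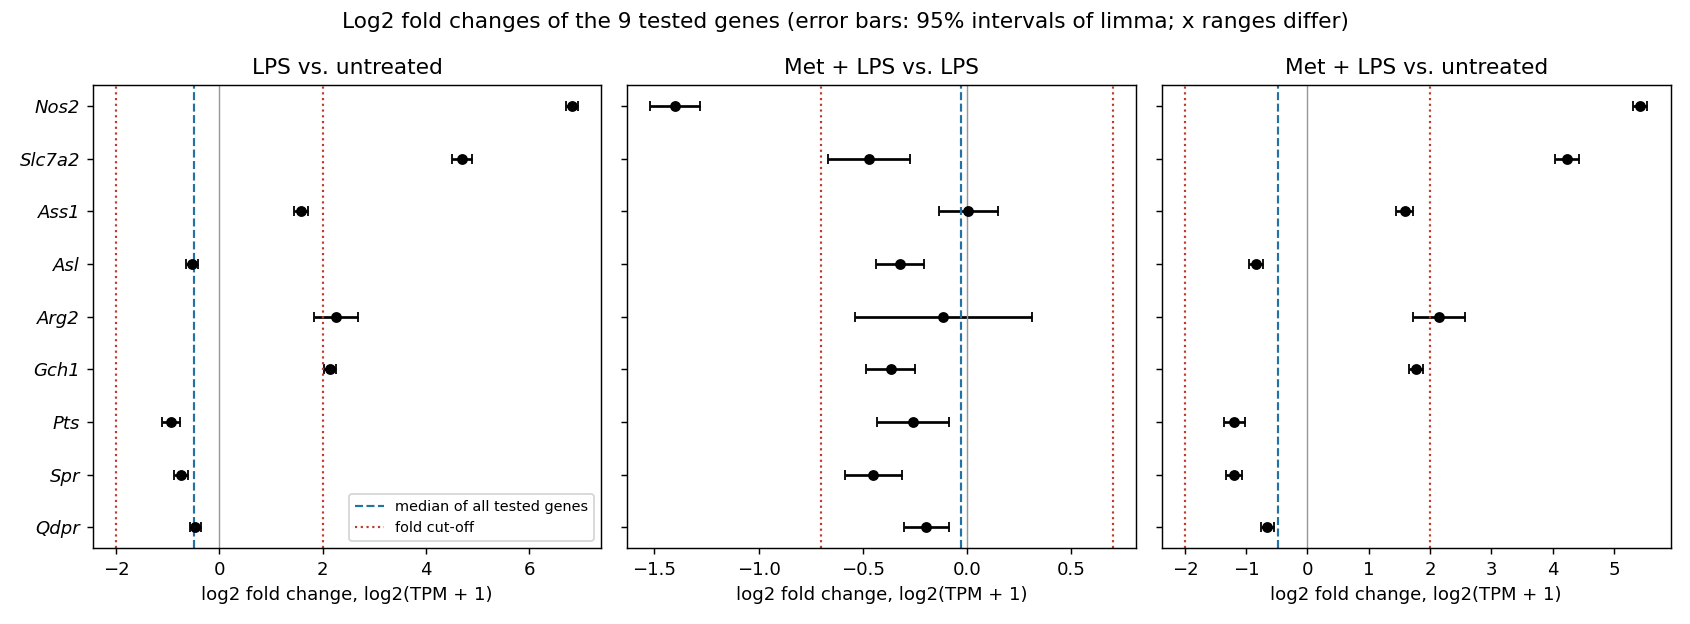
Log2 fold change on log2(TPM + 1), with its 95% interval from limma, of the 9 tested genes in each of the 3 comparisons, whose x ranges differ, with the fold cut-offs and the median of all tested genes marked. The increases with LPS run from 1.58 (Ass1) to 6.82 (Nos2), and in Met + LPS vs. LPS only Nos2, at -1.40, passes the cut-off.

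Met + LPS vs. untreated shares its libraries with the comparisons above and shows where the genes stood after both treatments. Nos2 (5.43), Slc7a2 (4.23) and Arg2 (2.15) were past the cut-off and higher, 3 of 9 genes, against 3.18% of all tested genes higher and 5.35% past it. Here too Nos2 and Arg2 passed the filter on low values only through the stimulated libraries, and a difference in them follows from that. For Arg2 the log2 fold change was 1.97 without Untr replicate 2 and 1.996 without Met_LPS replicate 2, in each case just under the cut-off, which left 2 genes. Gch1 (1.78) and Ass1 (1.59) were also higher, and Qdpr (-0.66), Asl (-0.84), Pts (-1.19) and Spr (-1.20) were lower, each by limma at an adjusted p-value under 0.01. All 9 thus changed at any fold, 5 higher and 4 lower, as did 75.1% of all tested genes, 16.3% higher and 58.8% lower. With median-ratio scaling Gch1 (2.28) and Ass1 (2.04) passed the cut-off too, which gave 5 genes, and Qdpr (-0.12, adjusted p = 0.0481) no longer changed.

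**Figure D3:**
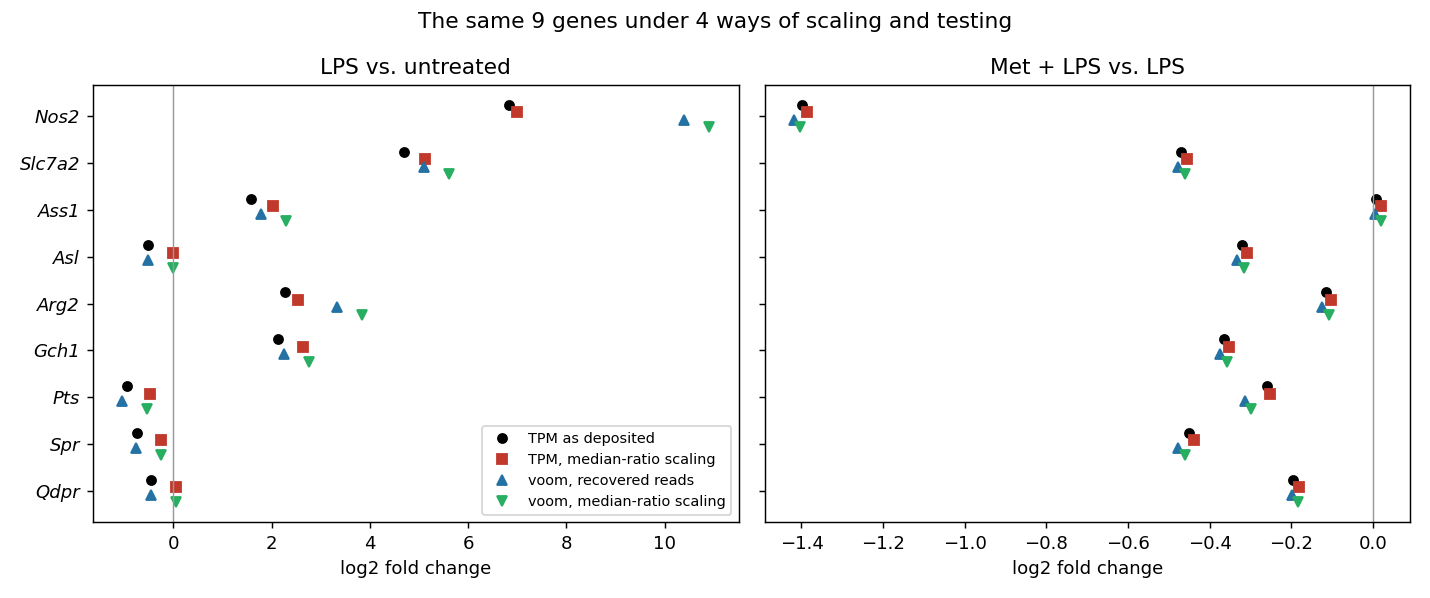
Log2 fold change of the 9 tested genes (x axis, ranges differ) in LPS vs. untreated and in Met + LPS vs. LPS, from TPM as deposited, TPM after median-ratio scaling, and voom on recovered reads without and with that scaling (4 symbols). The scaling moves LPS vs. untreated to the right for each gene, Qdpr from -0.46 to 0.06, and leaves Met + LPS vs. LPS almost in place, while voom gives larger values for Nos2 and Arg2, the genes with the fewest untreated reads.

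Of 33 other genes of arginine, NO and tetrahydrobiopterin handling, also listed with earlier results of these data known, 22 were tested. With LPS none passed the fold cut-off. At any fold by limma 4 were higher and 13 lower, near the 16.2% and 60.1% of all tested genes, with a median log2 fold change of -0.38 against -0.48. After median-ratio scaling 7 were higher and 3 lower, against 30.6% and 27.6% of all tested genes. With metformin 5 passed, in Met + LPS vs. LPS, 3 of them higher and 2 lower, where 8.28% of all tested genes passed. At any fold 3 were higher and 7 lower, against 14.5% and 18% of all tested genes, with a median of -0.18 against -0.03. The urea cycle genes Otc and Cps1, which act in liver, and Agmat, an agmatinase, were at 0 in all 6 libraries, which allows up to 3 reads in each. Among genes picked out after their values were seen, the neuronal and endothelial NO synthases Nos1 and Nos3 were at 0.189 TPM or less in every library, so that Nos2 was the only NO synthase above 1 TPM in any of them.

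Besides Slc7a1, the metformin increases were in Slc3a2 and Aldh18a1. Slc3a2 encodes the heavy chain that amino acid exchangers need to reach the cell surface, and was at 329 and 319 TPM in untreated, 424 and 419 TPM in LPS and 783 and 772 TPM in Met + LPS libraries. Aldh18a1, the enzyme that starts proline and ornithine synthesis from glutamate, was at 21.1 and 24.7, 12.2 and 11.1, and 32.5 and 33.0 TPM. Slc3a2 was highest with metformin, and Aldh18a1 fell with LPS and stood above untreated cells with metformin. The log2 fold changes of Met + LPS vs. LPS were 0.88 for Slc3a2 and 1.42 for Aldh18a1 (limma adjusted p = 9.84e-06 and 4.99e-05). For Slc3a2 the LPS rise was 0.38 in TPM and 0.90 after median-ratio scaling.

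The metformin decreases were in Slc7a7 and Ddah2. Slc7a7, a light chain that pairs with Slc3a2 to exchange cationic amino acids and lets arginine leave the cell, was at 16.6 and 17.2 TPM in untreated, 41.2 and 36.9 TPM in LPS and 19.3 and 18.3 TPM in Met + LPS libraries. It rose with LPS by 1.16 and fell by 1.01 between LPS and Met + LPS (limma adjusted p = 6.32e-06 and 6.49e-05). Met + LPS vs. untreated was 0.15 in TPM (adjusted p = 0.0740) but 0.65 after median-ratio scaling (limma adjusted p = 1.08e-04). Ddah2, a relative of the enzyme that clears methylarginines, which inhibit NO synthases, was at 18.2 and 18.5, 10.4 and 11.4, and 6.31 and 5.46 TPM, a fall with LPS (-0.71 in TPM) that did not pass the test after median-ratio scaling (-0.21, adjusted p = 0.0528). Its metformin difference was -0.79 (limma adjusted p = 4.06e-04), and it was -0.70, just short of the cut-off, without Met_LPS replicate 2, which left 4 genes of the list. Among the transport genes named, Slc7a1 and Slc3a2 were higher and Slc7a7 was lower past the cut-off in Met + LPS than in LPS libraries. Slc7a2 was also lower, but short of the cut-off and with a fragile call. Slc3a2 encodes a heavy chain of exchangers, so its rise does not by itself describe arginine transport.

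**Figure D4:**
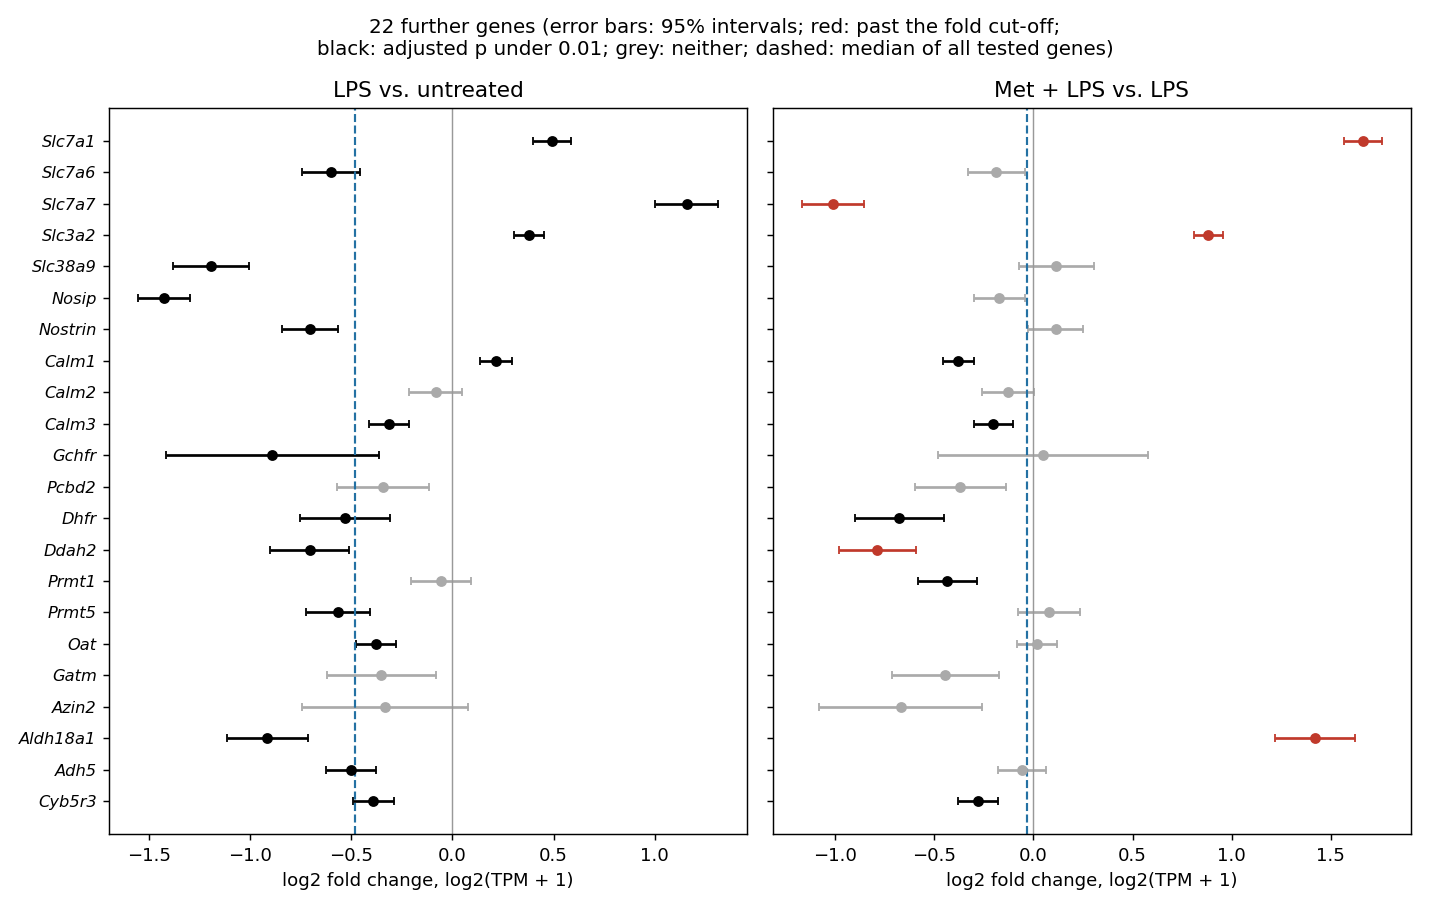
Log2 fold change on log2(TPM + 1), with its 95% interval from limma, of the 22 tested genes of the wider list in LPS vs. untreated and in Met + LPS vs. LPS, with the median of all tested genes dashed and genes past the cut-off in red. Slc7a1, Aldh18a1 and Slc3a2 lie above 0.7 and Slc7a7 and Ddah2 below -0.7 with metformin, while none reaches 2 with LPS.

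Transcription factors known to act at Nos2 or Arg1 (15 genes, all tested), listed with earlier results of these data known, were mostly higher with LPS. At any fold 12 were higher and 3 lower by limma, against 16.2% and 60.1% of all tested genes, with a median log2 fold change of 1.10 against -0.48. After median-ratio scaling 14 were higher and none lower, against 30.6% and 27.6% of all tested genes. Those past the cut-off were Irf1 (4.81), the interferon-regulated activator, Nfkb1 (2.55), the p105 and p50 subunit of NF-κB, and Cebpd (2.13), a C/EBP factor of the acute phase. All of these were higher, where 3.72% of all tested genes were higher past the cut-off and 6.08% were past it in either direction. With metformin, in Met + LPS vs. LPS, at any fold 3 were higher and 7 lower, against 14.5% and 18% of all tested genes.

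Past the metformin cut-off, Cebpd, Irf8 and Stat3 were lower and Atf4 was higher. Among all tested genes 4.09% were lower past it and 8.28% were past it in either direction. Cebpd was at 8.53 and 9.39 TPM in untreated, 39.7 and 45.9 TPM in LPS and 13.1 and 13.6 TPM in Met + LPS libraries, a log2 difference of -1.61 between the latter groups (limma adjusted p = 3.06e-05). Of the listed factors it had the largest metformin decrease, and Met + LPS vs. untreated was 0.53 in TPM and 1.02 after median-ratio scaling. Irf8, of the interferon regulatory family, was at 97.6 and 94.4, 211 and 261, and 134 and 123 TPM (-0.87, adjusted p = 5.66e-04 by limma). Stat3, which signals from IL-6 and IL-10 receptors, was at 62.9 and 64.3, 78.1 and 87.2, and 49.6 and 48.3 TPM (-0.74, limma adjusted p = 1.29e-04), and without LPS replicate 2 its difference of -0.66 missed the cut-off. For Stat3, Met + LPS vs. untreated was -0.37 in TPM but 0.16 after median-ratio scaling. Atf4, the factor of the integrated stress response that drives amino acid transport and synthesis genes, was at 258 and 258 TPM in untreated, 198 and 194 TPM in LPS and 331 and 334 TPM in Met + LPS libraries (0.75, limma adjusted p = 1.46e-05). For Atf4, LPS vs. untreated was -0.39 in TPM but 0.13 after median-ratio scaling. Irf1 and Nfkb1 differed by only -0.26 and -0.33 with metformin.

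The tested genes with profiles nearest to that of Nos2, by Euclidean distance over the 6 libraries of log2(TPM + 1) less the untreated mean, were Cd69 (distance 0.449), Cd40 (0.736), Cxcl9 (0.887), Adamts4 (0.897) and Mmp13 (0.931). Cd69 encodes an early activation antigen, Cd40 a costimulatory receptor, Cxcl9 a chemokine, and Adamts4 and Mmp13 secreted metalloproteinases. Cd69, the nearest, went from 0.367 ± 0.148 TPM (SD, n = 2) in untreated to 139 ± 7.06 TPM with LPS and 69.2 ± 1.51 TPM with Met + LPS. The metformin differences of the 5 genes lay between -1.30 (Cxcl9) and -0.81 (Cd40), each smaller than the -1.40 of Nos2. The measure weighs mainly the size of the LPS response, and these 5 are the closest of 12755 by construction.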

How the data were processed

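RNA-seq libraries of BMDMs (6, in 3 groups of 2, grouped by the labels) were analysed. According to the study's methods and the submitters' processing notes, poly-A RNA was sequenced single-end, aligned to GRCm38 with STAR 2.6.1d, processed with Samtools 1.9 and counted with featureCounts of Subread 1.6.3. The authors deposited TPM values per library, without pooling, and how counts became TPM is not given in the sources used here. The authors' DESeq2 test needs counts and was not run.

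The 12755 genes that reached 1 TPM in 2 or more libraries entered a limma fit (version 3.58.1, R 4.3.3) of log2(TPM + 1) on group, over the 6 libraries together, with an eBayes trend, 3 residual degrees of freedom and Benjamini-Hochberg adjustment. An exact two-sided permutation test of 2 against 2 libraries cannot go below p = 0.333 and was not used. TPM multiplied by GENCODE exon length (54495 of 54532 genes) gave whole reads, within 0.01 of a read, for 96.0% to 96.2% of values above 0. These reads served for counting intervals (95%, counting error only), floors of 3 reads and voom on 12750 genes, which was added after seeing the data. Scripts were tested on simulated data. Promoter sequences are from RefSeq (GRCm38.p6), and shared 31-base words were counted over all GENCODE transcripts.

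The genes of the set and the lists were chosen with earlier results of these data known. Named are the 10 genes, listed genes past a fold cut-off in any comparison or at 0 in all libraries, and the 5 genes nearest to Nos2. Alternatives were median-ratio scaling, a minimum of 5 TPM or none, a pseudocount of 0.1, compared groups only, a replicate block, no trend, an adjusted p-value of 0.05, a fold cut-off of 1, voom with and without median-ratio scaling, and leaving out each library.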

Additional observations from a re-analysis of the deposited data

How the results depend on the processing

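Of 405 values of single genes under the alternatives, 380 kept their direction and their side of the threshold, 16 lost the call with the same direction, 3 gained it and 6 changed sign. Many of these fold changes are the same by construction, so only the call could move. That holds for the other filters, compared groups only, the replicate block, no trend, and leaving out a library of a group not compared. Qdpr in LPS vs. untreated turned to 0.058 under median-ratio scaling and to 0.0577 under voom with median-ratio scaling. In Met + LPS vs. LPS, Arg2 ranged from -0.27 to 0.041 and Ass1 from -0.016 to 0.030 when a library was left out, with Arg2 at 0.034 and 0.041 and Ass1 at -0.012 and -0.016 without LPS replicate 1 and without Met_LPS replicate 1. Neither was called in any fit. Of 195 counts, 189 stayed within 1.5 times. The genes past the fold cut-off in Met + LPS vs. untreated were 5 under median-ratio scaling, 5 under voom with median-ratio scaling and 7 with a cut-off of 1, and those changed at any fold in Met + LPS vs. LPS ranged from 2 to 5 when a library was left out. The scaling differs because it centres the median gene, which TPM leaves at -0.48 in LPS vs. untreated.

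The correlations of the deviations of replicate 1 between groups were 0.006, -0.004 and 0.028 over 12755 genes. The sources used here do not say whether libraries with the same replicate number share an origin. These correlations cannot decide it, since a shared origin with small effects would also leave them low. With the replicate block, 4, 1 and 3 of the genes passed the fold cut-off in LPS vs. untreated, Met + LPS vs. LPS and Met + LPS vs. untreated and 9, 5 and 9 changed at any fold, and it changed no call. Depth limits Arg1 in all libraries, and Nos2 and Arg2 in untreated libraries. With 2 libraries per group the spread is borrowed across genes by the fit, and a library left alone in its group is assumed to vary like the others.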
